A study of Mus musculus with 9 samples.

Results

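The genes described here dipped below the control level 3 h after microglia were fed apoptotic cells and stood above it at 24 h. They were 142 of the 34623 gene names with a value on every array. A gene was taken when its brightest probe was well above background on the 3 control arrays, its mean was at least 1.5-fold below control at 3 h, and its mean was at least 1.5-fold above control at 24 h. Both differences therefore chose the genes, and their sizes are given as a description with no test. Of the 16660 genes that could have been taken, 20.2% met the limit at 3 h, 18.9% met the limit at 24 h and 0.852% met both. Names of lincRNA or chromosome intervals were left out, as were Egln3, Mgarp, Ankrd37, Mmp10 and Arg1.

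The arrays were 1-colour Agilent mouse expression arrays, 3 per group. The cells were primary microglia from newborn fms-EGFP mice, in which the promoter of the macrophage colony stimulating factor receptor drives EGFP, grown from pooled brains with GM-CSF. The control group (0 h) was not fed. The Ph3h and Ph24h groups (phagocytic, 3 h and 24 h) were given SH-SY5Y cells, a human neuroblastoma line, labelled with CM-DiI and made apoptotic with 3 µM staurosporine for 4 h. No unfed culture was arrayed at 3 h or 24 h, so feeding and time in culture cannot be told apart. Replicates were 3 independent experiments, with replicates 1 and 2 of each group on 1 slide and replicate 3 on the other.

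Levels are log2 intensities relative to the 75th percentile of the same array, so that 1 unit is a 2-fold change. All 15 microglia and macrophage markers were well above background on every control array, and their summed level, with each array's 75th percentile as 1, was 2255 to 2345 in control, 2906 to 3067 at 3 h and 2087 to 2235 at 24 h. Markers of neurons and neuroblastoma summed to 5.14 to 5.99 in control, 1505 to 1639 at 3 h and 2279 to 2626 at 24 h. Of the 18 genes on that list, 6 were above background on all control arrays, 13 on all 3 h arrays and 13 on all 24 h arrays. Dbh and Phox2a, sympathetic neuron genes of that list, were above background on no array. No member was on any of the 7 marker lists. The part of human RNA in the members' values was not tested, and in bulk RNA fewer cells of a type and less RNA per cell cannot be told apart. The 75th percentile itself was an intensity of 356 to 473 in control, 185 to 211 at 3 h and 156 to 161 at 24 h, so a faint gene was closer to background on the arrays of fed cells.

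Microglia are the resident macrophages of the brain and clear dying neurons by phagocytosis. An engulfed cell brings lipid, protein, nucleic acid and iron into the phagocyte, which has to be degraded, stored or exported. Macrophages that take up such cargo are known to shift their energy metabolism, and genes of the hypoxia response, glutathione metabolism and lipid mediator synthesis are established parts of macrophage biology.

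Among the 88 members well above background on all 9 arrays, the fall at 3 h ran from 1.51-fold to 6.38-fold with a median of 1.92-fold, and the rise over control at 24 h ran from 1.5-fold to 7.74-fold with a median of 1.99-fold. The level at 24 h was 2.35-fold to 17.7-fold that at 3 h in these genes, with a median of 4.07-fold. The median difference over all 142 members was -1.03 at 3 h and 1.06 at 24 h, beside 0.07 and 0.01 over the 24102 genes tested. With the 30 members not above background on any 3 h array set at the bound of their fall, the median at 3 h was -0.89. In 53 of the 88 genes above background on all arrays the rise was larger than the fall, and in the other 35 the fall was larger. The 3 h arrays lay below all control arrays in 135 members, beside 30.5% of all genes tested. The 24 h arrays lay above all control arrays in 131 members, beside 34.6% of all genes tested. Both held for 127 members, beside 2.41% of all genes tested. These shares follow from the rule and are read no further.

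**Figure D1:**
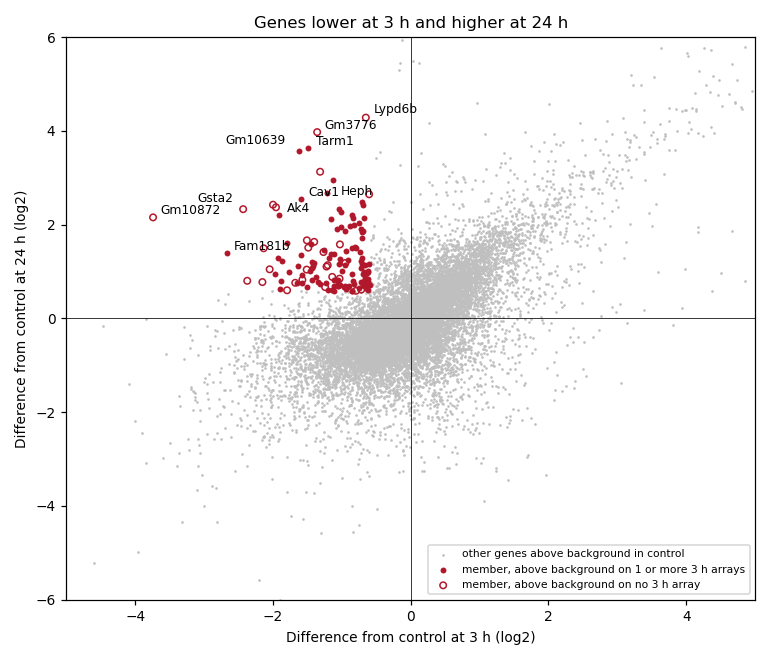
Difference from control at 3 h (x axis, log2) against that at 24 h (y axis, log2) for every gene above background in control, with the 142 members in red. Members fill the upper left corner beyond 1.5-fold on both axes, with Fam181b furthest left among filled points and Lypd6b highest. Open circles are the 30 members above background on no 3 h array, and 31 other genes lie outside the plotted range.

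For the 30 members above background on no 3 h array, only a lower bound of their fall could be had. That bound sets the control mean against the faintest signal that counted as above background on each 3 h array, and it reached 1.5-fold in 9 of the 30: Gm10872, Nrg4, C1s1, C1s2, Gsta4, Gsta2, Gm2011, Dner and Epm2a. A mean with at least 1 array above background at 3 h was counted as measured. Measured values or bounds thus passed 1.5-fold at 3 h in 121 of the 142. In 10 members 1 array at 3 h was above background, and in 14 members 2 were. Their means take in arrays not above background, so the sizes of their falls are uncertain. At 24 h, 134 members were above background on all 3 arrays. The number of members was 78 after another background correction (normexp) with quantile normalization, and 88 when a call above background on all 9 arrays was asked for.

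**Figure D2:**
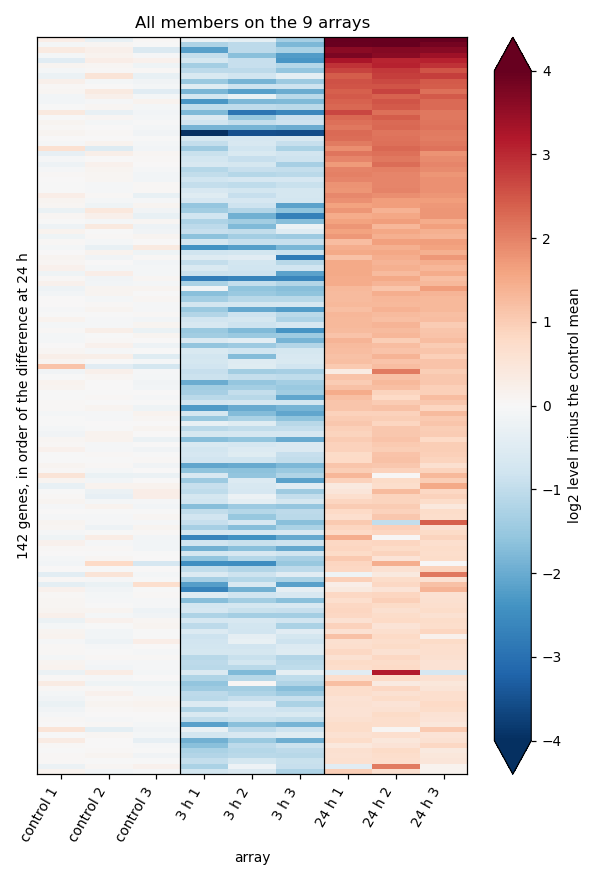
Level of each of the 142 members on each of the 9 arrays as log2 minus the control mean, with genes ordered from the largest rise at 24 h (top) to the smallest. The 3 h columns are blue and the 24 h columns red almost throughout, and single arrays that break from their group are seen in a few faint genes near the bottom, such as Skint5 and 2900024J01Rik.

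The rule sat close to several genes. Just inside the limit at 3 h were Nabp1, with a difference of -0.59, and 5830432E09Rik, with a nominal -0.60 although it was above background on no 3 h array. Just outside were Pgm2 and Pls3, both at -0.58. Just inside the limit at 24 h were LOC102633223 and Skint5, both at 0.59, and just outside were Gata3 and BB236558, both at 0.58. Gata3, like Skint5, was above background on 1 of 3 arrays at 24 h. Skint5 passed through 1 array: its 24 h levels were -4.34, -1.83 and -3.75 against -4.14, -3.83 and -3.73 in control, and without the second array its difference at 24 h was -0.15. The same array carried 2900024J01Rik, named after its values were seen, whose 24 h levels were -4.10, -0.46 and -4.30 against -3.86, -3.34 and -3.71 in control, with a difference of -0.57 without it.

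Hypoxia genes formed the list with most members. Hypoxia-inducible factors are transcription factors that prolyl hydroxylases mark for destruction while oxygen is plentiful, and that otherwise switch on genes of glycolysis, mitochondrial turnover and vessel growth. Of 47 measured genes on the list, 10 were members: Egln1, Bnip3, Adm, P4ha2, Pdk1, Fam162a, Stc2, Gys1, Ak4 and Rcor2.

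Ak4, a mitochondrial adenylate kinase, had the largest value of the smaller of its 2 differences among the 88 genes above background on all arrays. Its levels were 2.03, 2.00 and 1.91 in control, 0.12, 0.12 and -0.02 at 3 h, and 4.10, 4.29 and 4.16 at 24 h. The groups were far apart, with a level 3.75-fold lower at 3 h and 4.60-fold higher at 24 h than in control. A fainter probe of Ak4 differed by -0.05 at 3 h and by 2.68 at 24 h, so the fall rested on the brighter probe.

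Bnip3 encodes a receptor of the outer mitochondrial membrane for mitophagy. Its levels were 5.65, 5.66 and 5.63 in control, 4.94, 4.96 and 4.99 at 3 h, and 7.87, 7.81 and 7.70 at 24 h. This tight dip of 1.60-fold was followed by a level 4.43-fold over control, and the other 2 probes of Bnip3 differed by -0.88 and -0.56 at 3 h and by 2.09 and 2.16 at 24 h. Fam162a, another mitochondrial protein of the hypoxia response, stood at 4.99, 5.08 and 4.93 in control, 3.98, 3.99 and 3.92 at 3 h, and 7.31, 7.44 and 7.27 at 24 h. No array of one group reached into the next, and the differences were 2.06-fold down and 5.05-fold up.

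Adm encodes adrenomedullin, a secreted vasodilator peptide. Its levels were 2.66, 2.83 and 2.63 in control, 1.75, 2.05 and 1.79 at 3 h, and 4.78, 4.92 and 4.83 at 24 h, a fall of 1.79-fold and a rise of 4.4-fold. Calcrl, which with accessory proteins forms the adrenomedullin receptor, was also a member (named after its values were seen). It was 2.17-fold lower at 3 h, where 1 of 3 arrays was above background, and 1.76-fold higher at 24 h.

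Enzymes of oxygen sensing, collagen and carbohydrate metabolism followed the same course. Egln1, the prolyl hydroxylase that acts on hypoxia-inducible factors, was 1.53-fold lower at 3 h and 1.98-fold higher at 24 h. P4ha2, a collagen prolyl hydroxylase subunit, was 1.63-fold lower and 2.45-fold higher. Pdk1, a mitochondrial kinase that inhibits pyruvate dehydrogenase, was 1.65-fold lower and 2.10-fold higher. Gys1, the glycogen synthase, was 1.63-fold lower and 3.31-fold higher, and its other probe differed by -0.90 and 1.54. Epm2a, the glycogen phosphatase laforin, was a member too, at least 1.67-fold lower at 3 h and 1.71-fold higher at 24 h. Its rise is uncertain, since its 24 h levels of -2.57, -1.95 and -3.39 overlapped those in control, -3.51, -2.63 and -4.10.

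Rcor2, a corepressor of chromatin, was 2.76-fold lower at 3 h and 2.02-fold higher at 24 h. Stc2, a secreted glycoprotein, was not above background at 3 h, and its level at 24 h was 2.07-fold over control. Arnt2, a dimerisation partner of transcription factors of the same family as the hypoxia-inducible ones, was 2.66-fold lower and 2.26-fold higher (named after its values were seen).

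The other 37 measured genes of the hypoxia list were tested with limma over all genes. At 3 h 17 were lower and 10 higher, where 26.0% and 27.9% of all genes were called. At 24 h 20 were higher and 11 lower, where 29.9% and 33.2% of all genes were called. Lower at 3 h and higher at 24 h by that test were 8 of the 37, namely Egln3, Mgarp, Ankrd37, Ero1l, Gbe1, Higd1a, Bnip3l and Kdm4b, where 1.7% of all genes were called in that way. Egln3, Mgarp and Ankrd37 also met both limits of the rule and were left out of the members by name. With median scaling of the arrays, 19 of the 47 genes of the list were higher at 24 h, where 30 were with the scaling used here. The median differences of the 37 were -0.22 at 3 h and 0.38 at 24 h. Vegfa and Zfp395 stood higher at both times, by 2.25 and 2.37 at 3 h and by 0.77 and 2.43 at 24 h on the log2 scale, so the dip was not shared across the list.

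**Figure D3:**
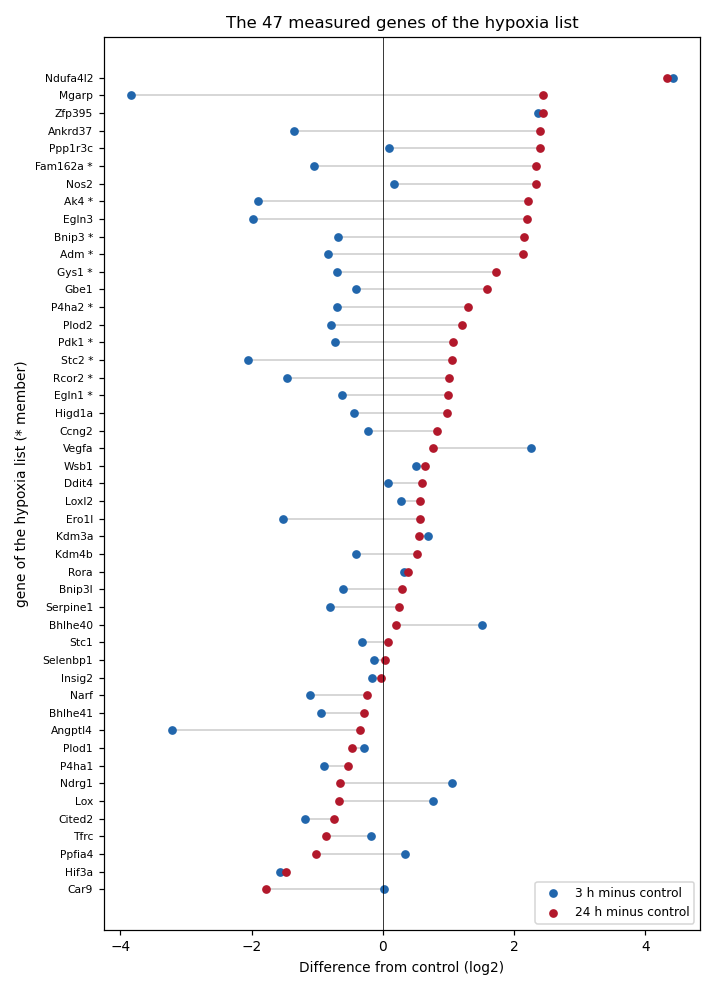
Difference from control (x axis, log2) at 3 h (blue) and at 24 h (red) for each of the 47 measured genes of the hypoxia list, members marked with an asterisk. The 10 members have blue points left of 0 and red points right of 0, while Vegfa and Zfp395 have both points to the right. Ndufa4l2, at the top, was above background on no control array, so its plotted differences are not measured sizes.

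Promoters of these genes were read for ACGTG, the core of the hypoxia response element, since that factor family binds it. The RefSeq promoters (GRCm38.p6) cover 250 bases before and 50 after each start, and 97 of the members had one. ACGTG, on either strand, lay in those of 6 of the 10 hypoxia members and in 17 of 26 other genes of the list with a promoter. Over all members it lay in 25.8%, beside 21.8% of all genes in the promoter table. Shown here are 60 bases of each of the 6 around a match, on the gene's strand, with the core in capitals; CACGT is the core on the opposite strand, and CACGTG (an E-box) holds it on both.
Ak4, chr4:101419462-101419521, + strand: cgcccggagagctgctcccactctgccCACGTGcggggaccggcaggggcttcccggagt
Fam162a, chr16:36071611-36071670, - strand: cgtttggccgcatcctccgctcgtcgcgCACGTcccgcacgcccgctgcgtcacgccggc
Rcor2, chr19:7267334-7267393, + strand: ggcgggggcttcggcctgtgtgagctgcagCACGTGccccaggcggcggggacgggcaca
P4ha2, chr11:54100818-54100877, + strand: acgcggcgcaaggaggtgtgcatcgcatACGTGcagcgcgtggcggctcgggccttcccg
Bnip3, chr7:138909582-138909641, - strand: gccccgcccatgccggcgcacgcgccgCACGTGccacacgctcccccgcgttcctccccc
Egln1, chr8:124949291-124949350, - strand: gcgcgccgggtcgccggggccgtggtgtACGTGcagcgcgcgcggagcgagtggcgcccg
Ak4, Rcor2 and Bnip3 held the palindromic CACGTG form, which 6.19% of members and 8.09% of all genes held. A match is a run of letters and not a shown binding site. The Ak4 stretch lies before a start inside the gene as placed (chr4:101416478-101467771), and not before the gene's outer end. For the other motifs searched, the share of members against all genes was 7.22% against 8.97% for TGANTCA (AP-1), 3.09% against 2.03% for TGACGTCA (CRE), 34.0% against 31.3% for GAGGAA (PU.1 core), 6.19% against 9.76% for GAAANNGAA (interferon response core), 7.22% against 6.62% for GGNNTTTCC (kappa B) and 8.25% against 15.7% for TATAAA. No member held TTGCGCAA (C/EBP), which 0.207% of all genes held.

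Glutathione S-transferases, which conjugate glutathione to electrophiles and lipid peroxidation products, gave 5 members. The family was picked out after its values were seen and has no test. Gsta2, Gm10639, Gm3776 and Gsta4 lie next to each other among the measured genes of chr9:78191966-78347192 (GRCm38.p6), and Mgst2 is a microsomal transferase elsewhere. Gsta2 levels were -2.85, -3.54 and -3.34 in control, -5.01, -6.15 and -5.86 at 3 h, and -0.56, -1.04 and -1.13 at 24 h. No 3 h array was above background, so the fall was at least 1.88-fold, and the level at 24 h was 5.03-fold over control and at least 9.48-fold over that at 3 h.

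Gm10639, a gene of the same family, stood at -3.19, -2.97 and -3.14 in control, -4.07, -4.76 and -5.33 at 3 h, and 0.65, 0.50 and 0.29 at 24 h. It was above background on 1 of 3 arrays at 3 h and 12-fold over control at 24 h. Gm3776 was 15.7-fold over control at 24 h and at least 15.0-fold over its level at 3 h, where it was not above background on any array. Gsta4 was at least 1.88-fold lower at 3 h and 1.59-fold higher at 24 h.

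The probes of Gsta2 and Gm10639 were identical in 53 of 60 bases, those of Gsta2 and Gm3776 in 46 and those of Gm10639 and Gm3776 in 41, so these 3 genes may share signal and are uncertain as separate measurements. Their promoters are shown because the genes moved together, as the 120 bases before each annotated start. The start used for Gsta2 lies inside the gene as placed (chr9:78331018-78347192), so part of its stretch is within the gene.
Gsta2, chr9:78347146-78347265, - strand: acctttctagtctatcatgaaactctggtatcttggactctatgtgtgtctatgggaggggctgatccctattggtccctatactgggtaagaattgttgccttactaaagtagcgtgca
Gm10639, chr9:78289808-78289927, + strand: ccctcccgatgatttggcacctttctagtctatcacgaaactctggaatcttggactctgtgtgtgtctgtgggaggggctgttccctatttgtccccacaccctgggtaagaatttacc
Gm3776, chr9:78257009-78257128, + strand: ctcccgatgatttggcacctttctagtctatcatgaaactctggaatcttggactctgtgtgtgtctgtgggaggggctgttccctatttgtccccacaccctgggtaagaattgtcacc
Over the 250 bases before the start, Gm10639 and Gm3776 were identical at 98.0% of aligned bases without gaps, and Gsta2 matched them at 57.8% and 56.8%. As the start used for Gsta2 lies inside its gene, the shares for Gsta2 compare stretches that sit differently against the genes. The likeness of Gsta2 lay in 1 stretch of 132 bases, where 108 were identical to Gm10639 and 109 to Gm3776.

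Of the 22 glutathione transferases above background in control, 18 were below control at 3 h, 13 above it at 24 h and 10 both, with 5 of them members. By the same reading of the means, 54.1% of the 16660 genes were below at 3 h, 38.6% above at 24 h and 9.15% both. The 5 members had both signs by the rule, so this comparison is a description and gives no support to the pattern. Gsto1 and Gstt3 were lower at both times, by -1.14 and -1.63 at 3 h and by -1.40 and -1.40 at 24 h on the log2 scale, and Gstp1 was higher at both, by 0.81 and 0.60. Mgst2 was well measured, with 1.84, 1.96 and 1.67 in control, 1.02, 1.10 and 0.95 at 3 h, and 3.33, 3.36 and 3.26 at 24 h. It dipped 1.74-fold and then stood 2.81-fold over control.

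Other redox enzymes did likewise (named after their values were seen). Prdx6, a peroxidase that also acts on phospholipids, stood at 7.65, 7.62 and 7.72 in control, 7.01, 6.92 and 6.96 at 3 h, and 9.43, 9.64 and 9.50 at 24 h. It was 1.62-fold lower and then 3.63-fold higher, and its 3 other probes differed by -0.70 to -0.89 at 3 h and by 1.79 to 1.90 at 24 h. Sqrdl (now Sqor), which oxidises sulfide in mitochondria, was 1.55-fold lower and 1.55-fold higher, and Pir, an iron-binding nuclear protein, 1.79-fold lower and 1.73-fold higher. None of these stands on the list of NRF2 targets used here, which does not tell whether NRF2 acts on them. That list had 6 of 25 genes lower and 12 higher at 3 h by limma, and 3 lower and 19 higher at 24 h, with 4 lower at 3 h and higher at 24 h. Over all genes 26.0% and 27.9% were called at 3 h, 33.2% and 29.9% at 24 h, and 1.7% in that last way.

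Enzymes of lipid metabolism among the members numbered 7 (grouped after their values were seen), with rises of 1.51-fold to 5.34-fold. Falls were 1.61-fold to 2.17-fold in 6 of them, and Smpd5 was above background on no 3 h array. Pla2g4a, the cytosolic phospholipase that frees arachidonic acid, was 1.65-fold lower and 1.72-fold higher. Pla2g7 and Pafah1b3, both of which act on platelet-activating factor, were 1.93-fold and 2.17-fold lower and then 1.55-fold and 1.51-fold higher. Acsl1, which activates fatty acids, was 1.61-fold lower and 1.68-fold higher. Pla1a, a phospholipase for phosphatidylserine, was 1.62-fold lower, with 2 of 3 arrays above background at 3 h, and 5.34-fold higher at 24 h.

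Secreted immune proteins were also among the members. Ccl3, a chemokine that draws monocytes and lymphocytes, had levels of 8.0, 8.08 and 8.18 in control, 6.71, 6.60 and 6.65 at 3 h, and 9.23, 9.41 and 9.23 at 24 h. Its fall was 2.71-fold and its rise 2.30-fold. By limma 15 of the 23 other measured chemokines were higher and 2 lower at 3 h, and 13 were higher and 6 lower at 24 h, with none lower at 3 h and higher at 24 h. Over all genes 27.9% were called higher and 26.0% lower at 3 h, 29.9% higher and 33.2% lower at 24 h, and 1.7% in that last way. Il1f9 (interleukin 36 gamma) and Tnfsf9 (the ligand of 4-1BB) were 2.24-fold and 1.65-fold lower and then 4.33-fold and 2.33-fold higher (named after their values were seen).

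C1s1 and C1s2 encode copies of the complement protease C1s. C1s1 stood at -3.25, -3.03 and -2.96 in control and at -1.34, -1.64 and -1.72 at 24 h, 2.85-fold higher. It was at least 2.11-fold lower at 3 h, where no array was above background, and C1s2 was at least 2.00-fold lower and then 3.1-fold higher. Their probes were identical in no more than 21 of 60 bases. C1s2 was named after its values were seen. Serpini1 (neuroserpin), an inhibitor of plasminogen activators, was at least 1.06-fold lower at 3 h, no more than a bound, and 5.38-fold higher at 24 h. Among matrix enzymes, the aggrecanase Adamts4 was 2.39-fold lower and 2.75-fold higher, although its 3 h levels were -3.92, -3.86 and -6.18, with the third array not above background. Ctsk, a lysosomal collagenase, was 1.66-fold lower and 2.68-fold higher, and Mep1a, a secreted and membrane metalloprotease, 3.1-fold lower and 2.19-fold higher (both named after their values were seen).

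Surface proteins of phagocytes were also found. Edil3 is a secreted adaptor that links integrins to phosphatidylserine on apoptotic cells. Its levels were -1.14, -1.0 and -1.0 in control, -2.08, -2.10 and -2.60 at 3 h, and 1.65, 1.77 and 1.46 at 24 h. It fell 2.32-fold below control and then stood 6.37-fold above it, and every group was separate. Tarm1, an activating receptor of myeloid cells, stood at -2.55, -2.70 and -3.49 in control, -5.08, -3.95 and -4.16 at 3 h, and 0.68, 0.77 and 0.73 at 24 h, where it was 12.4-fold higher than in control. At 3 h 1 of its 3 arrays was above background.

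Clec4n, Fcgr2b and Cd33 came from the list of C-type lectins, Fc receptors and paired receptors. Clec4n (dectin-2), which binds fungal mannans, was 1.63-fold lower and 2.23-fold higher. Fcgr2b, the inhibitory Fc gamma receptor, was 2.16-fold lower and 1.60-fold higher, with levels of 1.73, 1.65 and 1.72 in control, 0.51, 0.58 and 0.68 at 3 h, and 2.37, 2.46 and 2.32 at 24 h. Cd33, a lectin for sialic acid, was 1.59-fold lower and 1.63-fold higher, again with every group apart. Of the 45 other measured genes of that list, limma called 26 higher and 8 lower at 3 h, 20 higher and 19 lower at 24 h, and 1 lower at 3 h and higher at 24 h. The shares over all genes were 27.9% and 26.0% at 3 h, 29.9% and 33.2% at 24 h, and 1.7%.

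Itgb7, Cd1d1 and Unc5b, an integrin subunit, a lipid antigen presenter and a netrin receptor, were 2.01-fold, 1.64-fold and 2.10-fold lower and then 4.82-fold, 3.77-fold and 3.78-fold higher (named after their values were seen). Il12rb1, a subunit of the interleukin 12 receptor, is uncertain: the probe taken differed by -0.89 and 1.97, whereas another probe was higher at both times, by 1.07 and 1.04.

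Signalling proteins came next. Dusp6, the phosphatase that switches off ERK, stood at 2.19, 2.39 and 2.27 in control, 0.63, 0.79 and 0.67 at 3 h, and 3.56, 3.74 and 3.64 at 24 h, a fall of 3.01-fold and a rise of 2.57-fold. In contrast, 26 of the 36 other measured genes of MAP kinase feedback and the immediate early response were higher at 3 h by limma, 5 were lower, and none was lower at 3 h and higher at 24 h. The shares over all genes were 27.9%, 26.0% and 1.7% in that order. Frk, a tyrosine kinase related to Src, was 3.91-fold lower and 1.92-fold higher. Ikbkg (NEMO), the regulatory subunit of the kinase that activates NF-kB, was 2.28-fold lower and 2.46-fold higher, and its second probe differed by -1.29 and 1.25. Lrrk2, a kinase linked to Parkinson's disease, was 2.36-fold lower and 1.70-fold higher (Ikbkg and Lrrk2 were named after their values were seen). Tfec, a transcription factor of macrophages, was 1.76-fold lower and 1.68-fold higher.

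Heph, an iron oxidase that aids iron export, stood at -0.09, -0.13 and -0.38 in control, -1.54, -1.12 and -1.34 at 3 h, and 2.68, 2.89 and 2.69 at 24 h. Its rise of 7.74-fold was the largest among the 88 members measured on all arrays, after a fall of 2.19-fold. Cav1, the coat protein of caveolae, stood at -0.76, -1.05 and -1.12 in control, -2.45, -2.83 and -2.42 at 3 h, and 1.58, 1.68 and 1.49 at 24 h. It was 3.01-fold lower and then 5.89-fold higher.

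Fam181b had the deepest measured fall among those 88, with levels of -0.72, -0.90 and -0.69 in control, -3.53, -3.42 and -3.37 at 3 h, and 0.71, 0.73 and 0.45 at 24 h. It was 6.38-fold lower and then 2.64-fold higher. Leng9 was 2.73-fold lower and 3.00-fold higher. Lypd6b, a membrane-anchored protein, had the largest rise of all members, 19.5-fold over control, with levels of -3.94, -4.51 and -4.17 in control and 0.12, 0.23 and -0.10 at 24 h. It was not above background at 3 h, so no fall can be given. The same was so of Nyx and D830026I12Rik, which were 5.17-fold and 2.82-fold over control at 24 h.

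**Figure D4:**
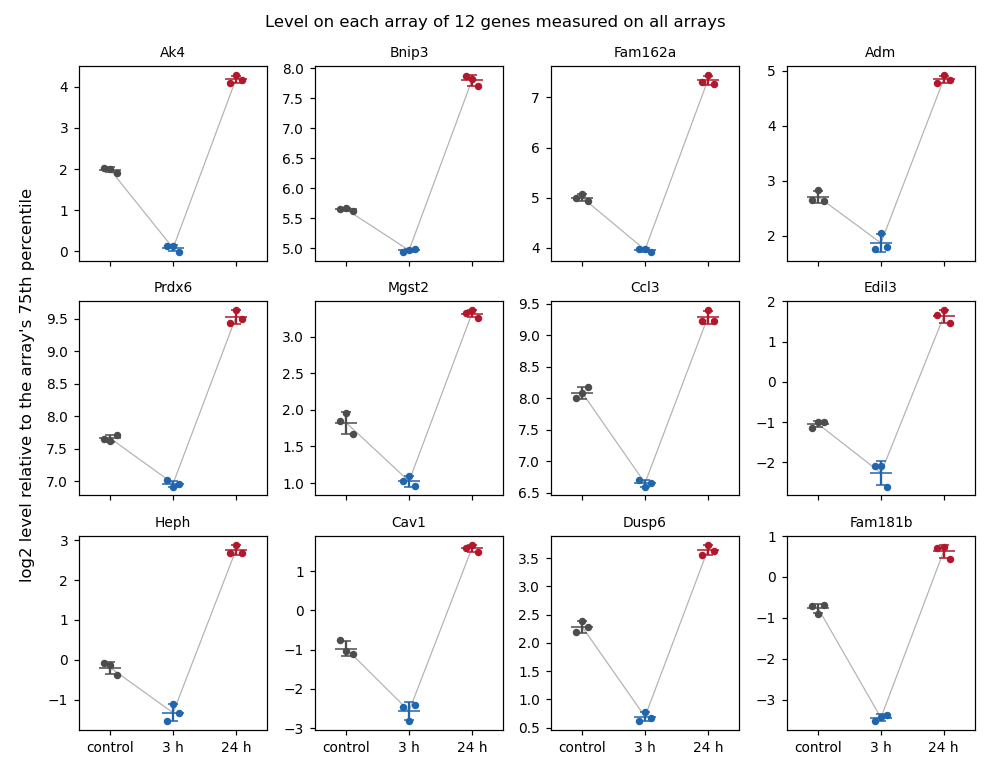
Level on each array (points), mean and SD (bars, n = 3) in control, at 3 h and at 24 h for 12 members above background on all 9 arrays; the y axis is log2 relative to the array's 75th percentile and differs between panels. In each panel the 3 h points lie below and the 24 h points above the control points.

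The remaining genes picked by size were faint. Gnat3, a taste G protein subunit, and Smtnl2, a smoothelin-like protein, had bounds of 1.24-fold each at 3 h and were 3.18-fold and 8.76-fold higher at 24 h. Zfp174, a zinc finger protein, was at least 1.35-fold lower and 1.75-fold higher, with 2 of 3 arrays above background at 24 h. 1600014C23Rik was 3.49-fold lower, with 1 of 3 arrays above background, and 3.03-fold higher.

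Position on the genome was not used by the rule. Of the members, 128 matched the RefSeq gene table (124 by symbol) and 120 were protein coding. They were ordered by start among 12878 genes of the array that passed the same filter. Counted on either side of each member, there were 256 flanking places, and a gene could fill more than 1. Of these places 18 held a member (7.03%), where members made up 0.994% of the ordered genes. These 18 places were 9 neighbouring pairs, each counted from both sides, among 14 members. Of the pairs, 2 (Gm3776 with Gm10639, and Gm10639 with Gsta2) had probes alike in over 40 bases.

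Without like probes were a run of Grina, Gm10872 and Smpd5 at chr15:76246717-76296896 and a run of Mep1a, Ankrd66 and Pla2g7 at chr17:43474324-43612202. Grina, a membrane protein of the Bax inhibitor family, was 1.53-fold lower and 1.53-fold higher. Gm10872 (now Mirt2), a long noncoding RNA, stood at -2.10, -2.13 and -2.35 in control, -6.33, -5.72 and -5.75 at 3 h, and 0.07, -0.06 and -0.11 at 24 h. It was at least 3.90-fold lower at 3 h and 4.46-fold higher at 24 h. Smpd5, a sphingomyelinase, was at least 1.35-fold lower and 2.27-fold higher. Ankrd66 was 1.80-fold lower and 2.84-fold higher.

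Gm11110, a noncoding gene that overlaps Tnfsf9 at chr17:57092023-57107758, was 3.73-fold lower and 1.54-fold higher and may share its signal. Gm13272 and Gm13275, neighbours at chr4:88779850-88795297, were 2.08-fold and 1.54-fold lower and then 1.62-fold and 2.01-fold higher. Of the 238 flanking places held by genes that were not members, 16.0% were below control at 3 h and above it at 24 h. The share was 8.37% of all genes that passed the filter and were not members, including those without a position.

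The pattern was read in arrays left out of the choice of genes, and in probes that had not chosen them. The brightest probe of a gene was still taken over all 9 arrays. The share over all genes is of genes not chosen by size, so a higher share among chosen genes follows if differences repeat between replicates. Of 146 genes chosen on replicates 1 and 2, 138 (94.5%, exact 95% interval 89.5 to 97.6) were below control at 3 h and above it at 24 h in replicate 3, where 10.8% of all genes above background in control were. Of 152 chosen without replicate 2, 135 (88.8%) were so in replicate 2, and of 164 chosen without replicate 1, 138 (84.1%) were so in replicate 1, beside 10.6% and 8.95%. The intervals cover counting over genes, which are not independent, and not the spread between experiments. Past both 1.5-fold limits in the replicate left out were 66.4%, 64.5% and 62.8%, beside 1.16%, 0.926% and 1.04% of all genes.

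The 26 members with further probes above background in control had 29 of them. Of these, 27 (93.1%) were below control at 3 h and above it at 24 h, beside 9.83% of 5248 such probes over all genes, and 18 (62.1%) were past both limits, beside 0.686%. The exceptions were the probe of Il12rb1 given above and a probe of Adamtsl5, at -0.53 and -0.21.

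**Figure D5:**
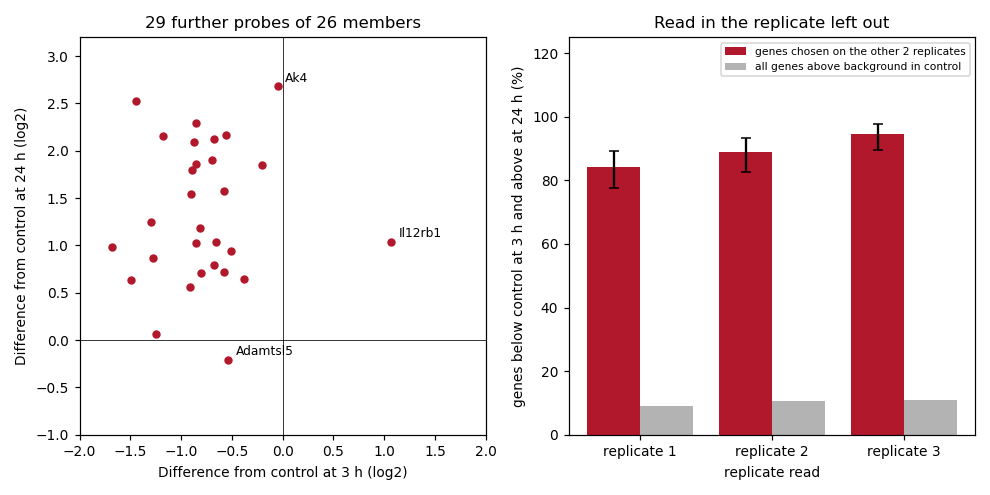
Left, difference from control at 3 h (x axis, log2) and at 24 h (y axis, log2) of the 29 further probes of 26 members, of which 27 lie at the upper left. They read the same RNA and arrays that chose the members. Right, percentage of genes below control at 3 h and above it at 24 h in the replicate left out (red, bars are exact 95% intervals) and among all genes above background in control (grey), from 84.1% to 94.5% against 8.95% to 10.8%. The intervals count genes, which are not independent, and the grey genes were not chosen by size.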

How the data were processed

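RNA of 9 microglia cultures was hybridised to 1-colour Agilent arrays, which the authors scanned and read with Feature Extraction 10.7.3.1. The deposited intensity (processed signal) was already background-subtracted by that software. The table of log2 values deposited by the authors was used as an alternative. The mean and background signals, also deposited intensities, served normexp. Flagged spots were left out, spots of a probe averaged, and log2 values reduced by the 75th percentile of the array over non-control probes. The probe with the highest mean stood for its gene name. A gene measured on no array of a group above background has a bound only, given as at least N-fold and computed against the lowest signal well above background on each array. No spot was saturated.

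The members and the gene lists were chosen with earlier results of these data known. Genes named in the text were, among members whose name is a RefSeq symbol, the 12 with the largest smaller one of both differences, the 8 with the deepest fall, the 8 with the largest rise and those on a pathway list, and also the genes next to a limit whatever their name. Other genes named in the text were chosen after their values were seen. Of 18 pathway lists 7 held a member. Counts of called genes come from limma 3.58.1 in R 4.3.3 (lmFit and eBayes, all 9 arrays, Benjamini-Hochberg adjusted p below 0.05), tested on simulated data. Python 3.11.15, pandas 2.3.3 and scipy 1.17.1 did the rest. The number of arrays, 3 per group, limits the precision. Alternatives were other scalings, normexp with an offset of 50, quantile normalization, other filters and limits, each replicate left out, each slide alone and the replicate number as a block. No pairing by replicate number was seen (correlations of deviations from -0.057 to 0.041), which cannot exclude that same-numbered arrays came from 1 experiment. The arrays' own build was not given in the sources used here, and positions and sequences come from RefSeq on GRCm38.p6.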

Additional observations from a re-analysis of the deposited data

How the results depend on the processing

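The rule gave 142 genes. It gave 78 after normexp with quantile normalization, 88 with a call above background on all 9 arrays, 45 with 2-fold limits, 1524 by sign only, 228 on slide 2 alone (1 array per group, with no replicate) and 139 to 149 with 1 array left out. Median scaling, which shifted the median of all genes by -0.24 at 3 h and -0.51 at 24 h (log2), kept 69 of the 142 among 97 genes. Quantile normalization gave 139 genes, and 138 came from the authors' values, with 114 of the 142 kept by each. The median difference of the members at 3 h was -1.28 after median scaling, -1.12 after quantile normalization, -0.63 after normexp, and -1.12 on the authors' values, and -1.05 to -1.0 with 1 array left out. At 24 h it was 0.55, 0.99, 0.73 and 0.99 in that order, 1.13 on slide 2 alone and 1.06 to 1.15 with 1 array left out. Of all genes called, 51.8% were higher at 3 h and 47.4% at 24 h, beside 33.7% and 23.9% with median scaling. Called genes of the hypoxia list at 24 h were 30 higher, and 19 with median scaling. The pattern read in a replicate left out held for 94.5% in replicate 3, 88.8% in replicate 2 and 84.1% in replicate 1. Skint5 turned its direction at 24 h without Ph24h replicate 2 (-0.15, and up to 1.10 with another array left out) and on slide 2 alone (-0.026). The other 1392 of 1394 alternative values kept their direction, which was likely beforehand since each gene had passed both limits on these same arrays. The alternative values cover the 41 genes named by size, by list or by nearness to a limit, and not those named after their values were seen. Among the latter, 2900024J01Rik also turned at 24 h without Ph24h replicate 2 (-0.57). With the replicate number as a block, the genes called were 12519 at 3 h and 14770 at 24 h, where 12977 and 15201 were called without it, and those of the hypoxia list 27 and 29. Same-numbered replicates share a number and a slide, and whether they share an experiment was not given in the labels, so no pairing is read from this. Faint signal at 3 h limits 30 members to a bound. The causes of these shifts were not tested.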

Other observations

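Long noncoding RNAs made up 7 members in the RefSeq table, with rises at 24 h of 1.52-fold to 6.28-fold: Gm10872, D830026I12Rik, F830208F22Rik, 2900024J01Rik, Gm11110, 5830432E09Rik and Gm5602, named after their values were seen. The rise of 2900024J01Rik rested on 1 of 3 arrays, the only one above background at 24 h. A further 14 members matched no entry of that table. Of these, AK144717 was above background on all 3 h arrays and was 1.64-fold lower at 3 h and 5.62-fold higher at 24 h, and BC158068 was 1.77-fold lower and 3.96-fold higher.

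Of the pathway lists, 11 held no member. By limma, 8 of 23 measured genes of glycolysis and lactate had fallen by 3 h, 6 had risen and 9 were not called, beside 26.0% of all genes lower and 27.9% higher. At 24 h 18 stood above control and 4 below, beside 29.9% and 33.2% of all genes, and 5 had done both, beside 1.7%. Of 29 genes of the type I interferon response, 26 were lower and 1 higher at 24 h, beside 33.2% and 29.9% of all genes.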
